A study of Apis mellifera with 15 samples.

Results

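The 200 protein-coding genes with the longest genomic span were examined in brain RNA of the honey bee (Apis mellifera). They were selected on annotated span and mean count, among genes with a LOC identifier, fewer than 10 annotated transcripts, at least 1 transcript of over 700 nt with more than 1 exon, at least 1 transcript with an XM or NM accession and a mean count of at least 10. Of the 12112 genes in the deposited table, 7584 met these criteria, and the 200 with the longest span, the distance from the first to the last annotated base, were kept. The other 7384 are called genes of shorter span. Span comes from the annotation, and the only measured value that the rule uses is the mean count over all libraries. Differences between treatments do not enter the rule, but the rule itself was chosen with earlier results of these data known.

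Forager bees from an unpolluted site drank sucrose solution with thiacloprid, an insecticide of the neonicotinoid class whose target is the nicotinic acetylcholine receptor, or with the solvent alone. The 3 groups were the solvent control, 25 ng per bee and 250 ng per bee, all kept in the laboratory for 72 h, with 5 replicates in each group. Each replicate was a pool of 5 dissected brains of adult workers, and differences between pools are part of every SD given. Poly-A RNA was sequenced with a stranded kit, and because the brains were measured in bulk, fewer cells of a type and less RNA per cell cannot be told apart in any value below.

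A gene of long span is mostly intron, and RNA polymerase has to copy the whole span before a full-length messenger RNA can be made. In mammals and in the fruit fly, many of the longest genes are used in neurons and encode cell adhesion proteins, ion channels and synaptic proteins. Neither the deposited tables nor the reference gene table names the products of these 200 honey bee genes, so they are described by identifier and no function is assigned to any of them.

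Total counts per library lay between 6834898 and 11500655 in 14 libraries and reached 29208991 in replicate 1 at 250 ng/bee, whose description also starts with another date-like string than those of the other 14. That library stood apart on the first 2 principal components. The number of the 200 genes called at 250 ng/bee and their median log2 fold change are also given without it. Other values at that dose include it unless stated. The 200 genes took 0.843% to 1.28% of the counts of a library. Marker genes of other cells were present in every group: 9 markers of the hypopharyngeal and mandibular glands of the head (the royal jelly protein genes Mrjp1 to Mrjp7, with Hbg2 and Hbg3) summed to 35723 at the lowest and 282047 at the highest among the control libraries, in CPM (counts scaled to library size), while the same sum spanned 100977 to 194051 CPM with 25 ng and 38891 to 284354 CPM with 250 ng. Among 5 neuron markers (Syt1, Syx1A, Nrx-1, Para and brp, with functions in transmitter release, synaptic adhesion and sodium current), summed levels were 1017 to 1296 CPM among controls, 905 to 1172 CPM with 25 ng and 819.5 to 980.2 CPM with 250 ng, and none of the 5 was at 0.

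The spans ran from 121402 nt to 869733 nt with a median of 189008.5 nt, against a median of 4227.5 nt in the genes of shorter span. The last genes inside the limit were LOC100578314 with 122695 nt, LOC411212 with 122056 nt and LOC410373 with 121402 nt. The first genes outside it were LOC408890 with 121383 nt, LOC412091 with 120656 nt and LOC100578818 with 120579 nt. The limit therefore cuts through a continuous series of spans and marks no gap.

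The 2 longest genes differed in almost everything but span. LOC724287 lay on the minus strand at chr11:5292072-6161805 and had 2 transcripts, the longer with 5087 nt in 10 exons. LOC725329, on the plus strand at chr7:9659369-10447465, spanned 788096 nt but its longest transcript had only 1954 nt in 8 exons, so that 0.248% of its span was exonic, the lowest share among the 200. LOC408822 on chromosome 5 (698418 nt) and LOC411155 on chromosome 6 (658613 nt) carried transcripts of up to 15999 nt and 12924 nt. A longer span thus did not go with a longer messenger RNA in these examples, and the rank correlation of span with the longest transcript was 0.12 across the 200.

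Compared with the genes of shorter span, the 200 genes were long in their introns more than in their messenger RNA. The median longest transcript was 5659 nt against 2224.5 nt, and the median number of exons was 12 against 7. The median share of the span that was exonic was 2.65% against 59.3%. The mean intron of the transcript with the highest level had a median of 18413 nt against 238 nt. At the extremes stood LOC113218567 with a mean intron of 123803 nt and LOC411843 with 443 nt. A single annotated transcript was listed for 31 of the 200 genes (15.5%), against 47.4% of the genes of shorter span.

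The spans of these genes often held other genes. Of the 200 genes, 123 (61.5%) contained at least 1 other annotated gene within their limits, against 9.75% of the genes of shorter span, and 105 (52.5%) held one on the opposite strand, against 8.10%. The 323 nested genes included 205 long noncoding RNA genes and 78 protein-coding genes, and 77 of the 323 had a mean count of at least 10. LOC100576383 on chromosome 4 and LOC410649 each held 11. None of the 323 nested genes was one of the 200. The sources used here do not say whether counting used strand, so reads of a nested gene that overlaps an exon of its host could have been counted for either.

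Genes of long span were found on all 16 chromosomes. There were 27 on chromosome 1, 20 on chromosome 4 and 19 on chromosome 7, and 6 on chromosome 16. Relative to the genes that met the other criteria, the share was highest on chromosome 7, at 4.97% of 382 genes, and lowest on chromosome 11, at 1.37% of 659 genes, although chromosome 11 carries the longest gene of all. No test was made of this distribution.

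Levels per transcript length were low for most of these genes. The summed FPKM of a gene's transcripts, averaged over the 15 libraries, had a median of 4.36 with a range from 0.115 in LOC725800 to 306 in LOC552844, against a median of 17.0 in the genes of shorter span. An FPKM of at least 10 was reached by 44 of the 200 genes (22%) and by 66.2% of the genes of shorter span. In CPM, which does not correct for transcript length, the medians were 22.8 and 40.5. Within the 200, span and FPKM were only weakly related, with a rank correlation of -0.13.

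**Figure D1:**
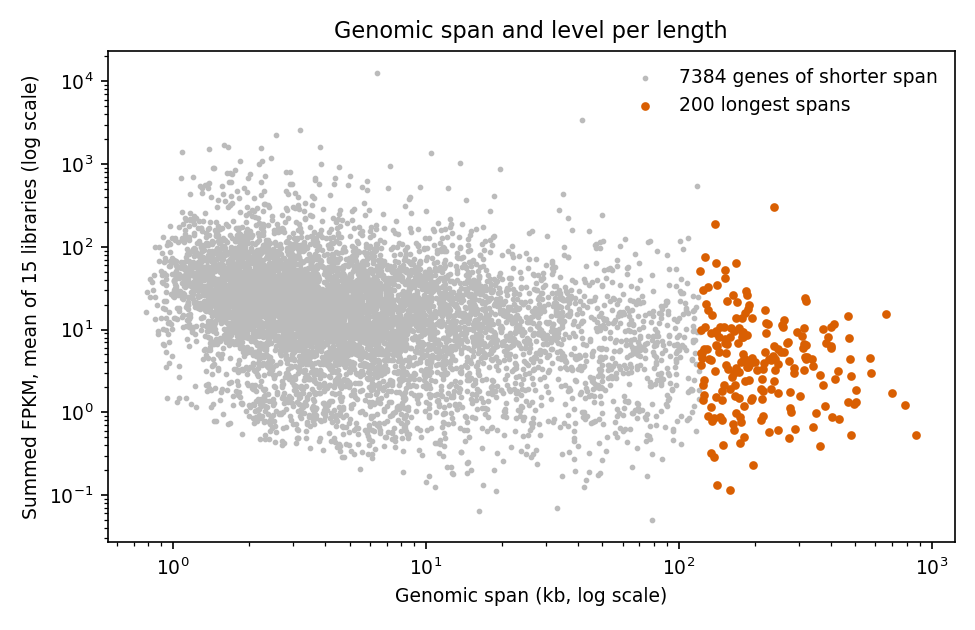
Genomic span in kb against the summed FPKM of each gene, averaged over 15 libraries, both on log scales; orange points are the 200 longest spans and grey points the 7384 genes of shorter span. The 200 genes have a median of 4.36 FPKM against 17.0, and LOC552844 with 306 FPKM is the highest orange point.

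A few genes of long span stood far above the rest. LOC552844, on the minus strand at chr15:6603005-6841964, had 1151, 817, 1212, 979 and 1651 CPM in the control libraries, 1037, 1389.5, 896, 1066 and 1338 CPM at 25 ng/bee and 1004, 1414, 783, 1170.0 and 1529.9 CPM at 250 ng/bee, in order of replicate number here and below. The 3 groups overlapped widely, with means of 1162 ± 314, 1145 ± 210.4 and 1180.0 ± 302 CPM (SD, n = 5). LOC551957 followed with 188 FPKM, then LOC410856 with 75 FPKM and LOC411113 with 64.0 FPKM. These highest levels belonged to genes of 127335 nt to 238959 nt, whereas LOC724287, the longest gene, had a mean of 0.538 FPKM.

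An annotated span is a property of the gene and not of the RNA measured, so the label was checked against the transcripts that carried the level. Weighting each transcript's own span by its share of the gene's FPKM gave a median of 174416 nt for the 200 genes. In 163 of them (81.5%) the transcript with the highest level covered at least 80% of the gene's span, against 92.5% of the genes of shorter span. In 17 (8.5%) the level-weighted span was under 0.5 of the gene's span, against 1.45%. The lowest level-weighted span of the 200 was 16721 nt, against a median of 4015 nt in the genes of shorter span. The measured RNA of most of these genes was thus assigned to transcripts that are long in the genome. In a minority the level-weighted span was well below the annotated span.

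**Figure D2:**
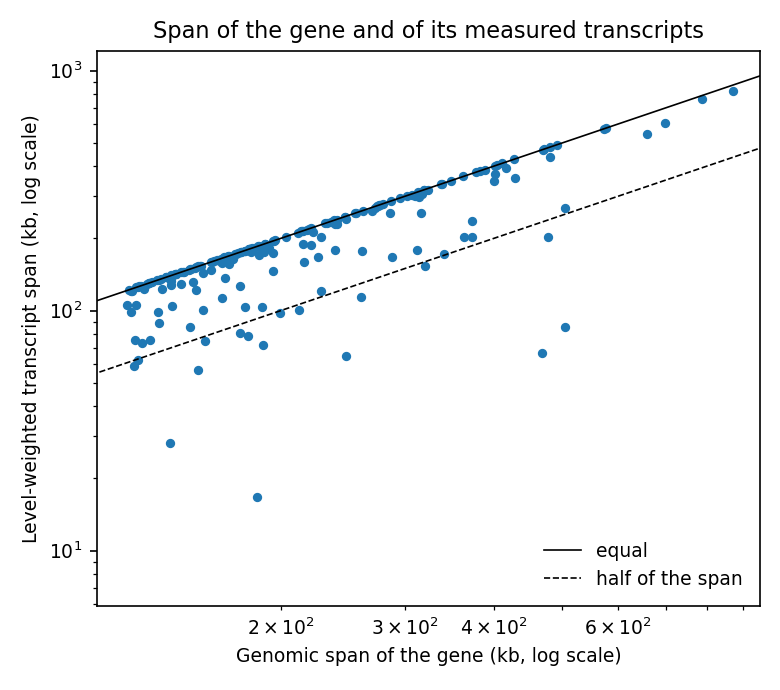
Genomic span of each of the 200 genes against the span of its transcripts weighted by their FPKM, in kb on log scales; the solid line marks equal values and the dashed line 0.5 of the gene's span. Most genes lie on or near the solid line, 17 lie below the dashed line, and the lowest point is LOC411843.

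LOC411843 was the clearest such case. Its span at chr13:7382389-7567285 is 184896 nt, but the transcript with the highest level spanned 3270 nt, and transcripts that cover at least 80% of the span, called full-span transcripts below, held 6.66% of its 29.4 FPKM. The share of full-span transcripts was 5.62% in LOC551957 and 1.02% in LOC413242. It was listed at 0 in LOC100578423, LOC411158, LOC726912, LOC410780 and LOC413071. In all, 106 genes had full-span transcripts only, 94 had shorter ones as well, 36 had a full-span share under 50% and 19 had one under 10%. Transcript levels are estimates that divide shared reads among overlapping transcripts, so these shares are less certain than the gene totals.

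All 200 genes were among the 9560 genes that passed edgeR's low-count filter and were tested. The median biological coefficient of variation between replicates was 0.194 in the 200 genes, 0.165 in the genes of shorter span and 0.176 in all genes tested. Values of the 200 genes thus scattered somewhat more between pools of brains. Differences below are log2 fold changes of counts from edgeR's quasi-likelihood test with their standard errors, and p-values were adjusted over all genes tested by the Benjamini-Hochberg method.

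At 25 ng/bee most genes of long span had lower values than in the control, by small amounts, and no single gene passed the test. Values were lower, with a log2 fold change below 0, in 154 of the 200 genes (77.0%), against 52.2% of all genes tested. The median was -0.10, against -0.01 in all genes tested and -0.01 in the genes of shorter span, and it was -0.17 without replicate 2 and -0.05 without replicate 4 at 25 ng/bee. None of the 200 genes had an adjusted p under 0.05 in edgeR's test, as was the case for all genes tested (0.0%), and DESeq2 and limma-voom also called none of the 200. At an unadjusted p under 0.05, 12 of the 200 genes were lower (6.0%), where 1.4% of all genes were, and 2 were higher (1.0%), where 1.06% were. The count of lower genes hung on single libraries: it was 27 without replicate 2 and 5 without replicate 4 at 25 ng/bee, and 20 without replicate 1 and 7 without replicate 3 of the control. In none of the 200 did all treated libraries lie below all control libraries (0.22% of all genes did) or above them (0.701%).

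LOC411229 had the smallest p among the genes with lower values at 25 ng/bee. This gene of 239918 nt, on the plus strand at chr7:2365220-2605138, had 7 transcripts of up to 3842 nt and up to 16 exons, all of them full-span. It had 19.7, 21.8, 23.5, 20.8 and 23.2 CPM in the control libraries, 20.5, 16.7, 17.5, 13.3 and 15.6 CPM at 25 ng/bee and 16.7, 12.8, 15.4, 13.9 and 12.4 CPM at 250 ng/bee. The highest library at 25 ng/bee lay within the control range and the other 4 lay below it, while all libraries at 250 ng/bee lay below the control. The log2 fold change at 25 ng/bee was -0.38 ± 0.13, with an edgeR adjusted p of 0.998.

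LOC412855, a gene with up to 33 exons at chr3:7825180-8038956, had 19.2, 25.4, 20.3, 22.6 and 26.0 CPM in the control libraries, 16.8, 19.7, 18.1, 13.8 and 18.2 CPM at 25 ng/bee and 16.3, 15.7, 13.4, 20.2 and 16.9 CPM at 250 ng/bee. The groups overlapped by 1 library at 25 ng/bee, and the log2 fold change there was -0.39 ± 0.13. LOC408960 is the ninth longest gene, with 491343 nt and up to 31 exons at chr8:4556616-5047959, and 1 of its libraries at 25 ng/bee reached into the control range. It had 12.2, 16.6, 16.2, 11.9 and 14.8 CPM in the control libraries, 10.2, 13.9, 8.90, 7.15 and 10.6 CPM at 25 ng/bee and 10.01, 10.3, 9.02, 12.9 and 8.11 CPM at 250 ng/bee, and its log2 fold change at 25 ng/bee was -0.50 ± 0.18. The other 7 of the 10 genes with the smallest p and lower values were LOC100576965, LOC412838, LOC410696, LOC552142, LOC410967, LOC100577283 and LOC411054, with log2 fold changes from -0.48 in LOC100576965 to -0.27 in LOC100577283.

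The higher values at 25 ng/bee had their smallest p in LOC100578423 and LOC411557. LOC100578423, on the minus strand at chr13:9136195-9476834, is one of the genes whose full-span transcript was listed at 0. It had 2.40, 3.24, 3.52, 2.87 and 3.05 CPM in the control libraries, 3.37, 6.52, 4.62, 3.42 and 4.25 CPM at 25 ng/bee and 2.35, 3.23, 2.66, 2.42 and 2.22 CPM at 250 ng/bee. The libraries at 25 ng/bee with 3.37 and 3.42 CPM fell within the control range and the other 3 lay above it, with a log2 fold change of 0.56 ± 0.23. LOC411557 at chr4:220941-408969 had 44.6, 75.6, 70.2, 43.4 and 77.99 CPM in the control libraries, 62.8, 85.8, 93.0, 80.5 and 115 CPM at 25 ng/bee and 73.1, 92.0, 79.7, 47.7 and 92.7 CPM at 250 ng/bee. Its control values fell into a lower and a higher group of libraries, and 4 of the 5 libraries at 25 ng/bee lay above the highest of them, with a log2 fold change of 0.49 ± 0.21. For the other 8 genes of this kind the log2 fold changes lay between 0.15 and 0.52, and the adjusted p of all 10 in edgeR's test was 0.998.

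At 250 ng/bee the lower values were again the rule, and again no gene passed the test with all libraries. The log2 fold change was below 0 in 156 of the 200 genes (78%), against 55.6% of all genes tested. The median was -0.17, against -0.03 in all genes tested and -0.04 in the genes of shorter span. None of the 200 had an adjusted p under 0.05 in edgeR's test (0.0% of all genes tested) or in DESeq2 (0.565% of all genes tested). The method limma-voom with sample weights called 7 (3.5%, against 4.08% of all genes tested), all with lower values. At an unadjusted p under 0.05, 28 were lower (14%), where 7.48% of all genes were, and none was higher, where 4.49% of all genes were. The 28 became 14 without replicate 2 of the control, 11 without replicate 3 of the control and 18 without replicate 5 at 250 ng/bee. The share of the 200 that was higher also moved with single libraries at 250 ng/bee. It was 1.0% without replicate 1, 1.0% without replicate 3 and 2.0% without replicate 4 in edgeR's test. With limma-voom with sample weights 3.5% were higher and 19.0% lower at an unadjusted p under 0.05. With DESeq2's size factors the unadjusted counts were 23 lower and 0 higher among the 200 and 544 lower and 533 higher among all genes, against 715 lower and 429 higher with the TMM normalization used otherwise. Both doses were compared with the same 5 control libraries, so the 2 comparisons are not independent of each other.

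Replicate 1 at 250 ng/bee decided how many genes were called. Without it, edgeR called 2 of the 200 genes (1.0%), where it called 2.58% of all genes, and both had lower values. These were LOC411229, with a log2 fold change of -0.65 and an adjusted p of 0.0265, and LOC412838, with -0.57 and an adjusted p of 0.0477. The share called among the 200 was thus below that among all genes. The median of the 200 without that library was -0.15.

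LOC411229 also had the smallest p at 250 ng/bee. Its mean was 21.8 ± 1.59 CPM in the control and 14.3 ± 1.80 CPM at 250 ng/bee (SD, n = 5), with no overlap between the libraries given above. The log2 fold change with all libraries was -0.61 ± 0.13, with an unadjusted p of 0.000193 and an adjusted p of 0.277 in edgeR's test. LOC412855 followed with -0.46 ± 0.13, where 1 treated library reached into the control range.

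LOC411054, at chr4:4012157-4194448, had 9.98, 20.7, 9.85, 12.1 and 9.44 CPM in the control libraries, 9.80, 8.46, 10.2, 7.47 and 8.61 CPM at 25 ng/bee and 5.62, 8.56, 8.56, 8.34 and 7.45 CPM at 250 ng/bee. The library with 20.7 CPM stood far above the other controls, and all treated libraries at 250 ng/bee still lay below the lowest control. The log2 fold change was -0.69 ± 0.21. LOC413557, at chr15:2286067-2455904, was measured at a higher level and with less relative scatter.

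LOC413557 had 119, 140.4, 134, 116 and 109 CPM in the control libraries, 123, 118, 119, 81.8 and 93.5 CPM at 25 ng/bee and 82.8, 96.6, 107, 99.04 and 89.3 CPM at 250 ng/bee. Its libraries at 250 ng/bee lay below all controls, though the gap between them was small, with a log2 fold change of -0.38 ± 0.12. LOC412838, at chr8:6752255-6892488, had 44.8, 47.6, 49.6, 45.4 and 38.3 CPM in the control libraries, 39.4, 30.2, 40.9, 26.6 and 33.3 CPM at 25 ng/bee and 43.5, 27.8, 38.4, 29.7 and 23.4 CPM at 250 ng/bee. Here the 2 highest libraries at 250 ng/bee, replicate 1 and replicate 3, overlapped the controls, and the log2 fold change with all libraries was -0.47 ± 0.16.

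LOC413242, whose level came almost wholly from transcripts shorter than the span, had 33.2, 45.01, 37.9, 35.2 and 29.2 CPM in the control libraries, 29.6, 36.1, 38.4, 22.3 and 23.0 CPM at 25 ng/bee and 30.3, 22.6, 29.6, 25.9 and 19.2 CPM at 250 ng/bee. Its 2 highest libraries at 250 ng/bee lay just above the lowest control, with a log2 fold change of -0.49 ± 0.17. LOC413021, the gene with the most exons among the 200 (36), had a log2 fold change of -0.29 ± 0.10. LOC408960, LOC410967 and LOC100576383 completed the 10 genes with the smallest p and lower values, at -0.50, -0.53 and -0.39. The adjusted p of these 10 lay between 0.277 and 0.349 in edgeR's test.

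**Figure D3:**
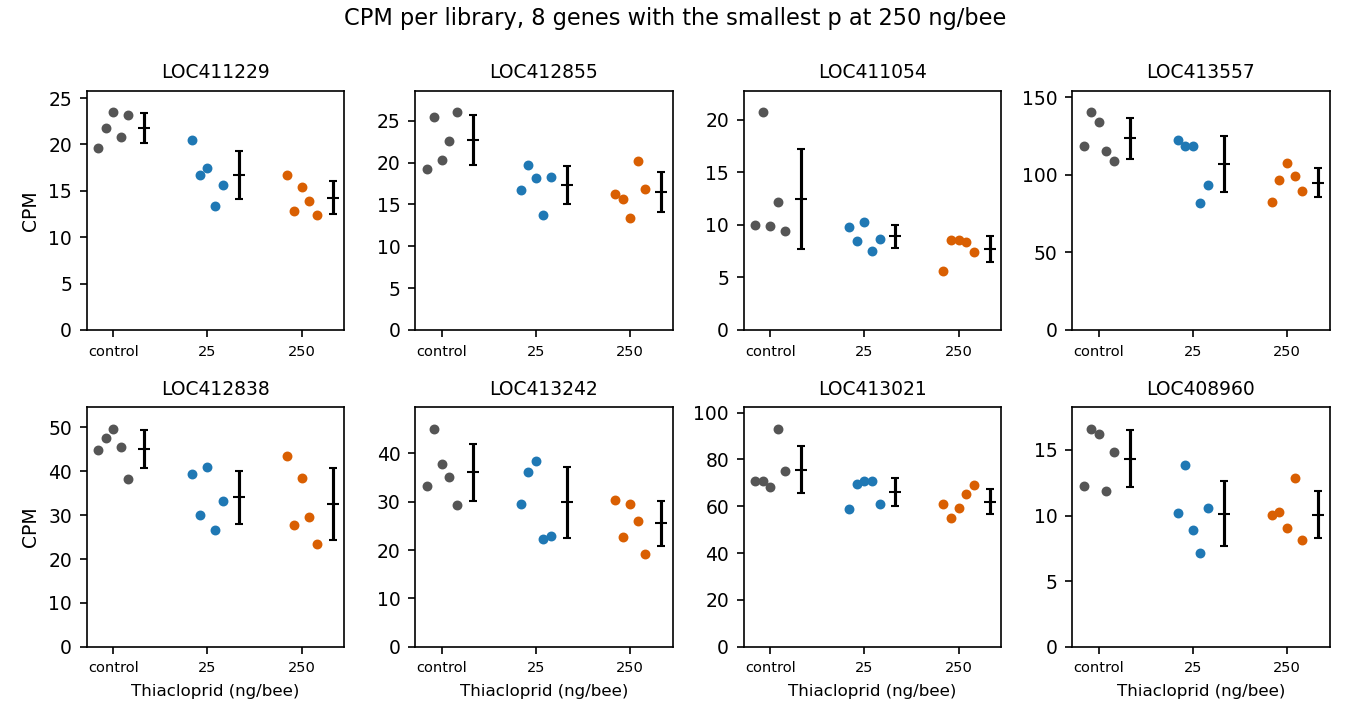
CPM in each library for the 8 genes of long span with the smallest p and lower values at 250 ng/bee, by group, with the mean and SD (n = 5) beside the points. All libraries at 250 ng/bee lie below all controls in LOC411229, LOC411054 and LOC413557, and the groups overlap in the other 5.

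In 7 of the 200 genes (3.5%) every library at 250 ng/bee lay below every control library, where 1.78% of all genes tested showed this, and in none did every library lie above, where 0.973% did. Besides LOC411229, LOC411054 and LOC413557 these were LOC410967, LOC410696, LOC410317 and LOC726948, of which the last 2 are named after their values were seen. LOC410317 had 48.5, 49.0, 56.2, 46.8 and 71.8 CPM in the control libraries, 50.4, 62.4, 35.7, 35.4 and 51.2 CPM at 25 ng/bee and 34.9, 33.7, 45.8, 6.55 and 43.5 CPM at 250 ng/bee. The library with 6.55 CPM stood far below all others.

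Values were higher at 250 ng/bee in 44 of the 200 genes, none of them at an unadjusted p under 0.05 in edgeR's test with all libraries. LOC551957, at chr15:5493865-5633547, had 445, 279, 402, 362 and 399 CPM in the control libraries, 287, 286, 336, 508 and 438 CPM at 25 ng/bee and 969, 560.3, 395, 396 and 345 CPM at 250 ng/bee. The 2 highest values belonged to replicates 1 and 2 at 250 ng/bee and the other 3 lay within the control range. The log2 fold change was 0.50 ± 0.25 with all libraries and 0.19 without replicate 1. LOC724847 had 22.5, 19.6, 27.3, 18.9 and 19.6 CPM in the control libraries, 19.0, 23.7, 24.2, 15.8 and 23.6 CPM at 25 ng/bee and 24.4, 28.7, 30.2, 21.1 and 25.9 CPM at 250 ng/bee, with a log2 fold change of 0.27 ± 0.14. The other 8 of the 10 genes with the smallest p and higher values had log2 fold changes between 0.16 and 0.56, and the lowest adjusted p of the 10 was 0.45 in edgeR's test.

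The shift of the whole group was also followed library by library. For each gene the deviation of log2(CPM + 1) from its mean over the 15 libraries was taken, and the median over the 200 genes was computed in each library. In the control these medians were -0.0074, 0.09, 0.17, 0.02 and 0.17, at 25 ng/bee -0.012, 0.16, -0.06, -0.24 and 0.01, and at 250 ng/bee -0.011, -0.03, -0.11, -0.11 and -0.06. The libraries at 250 ng/bee all lay below the lowest control, the nearest of them by a very small gap, and those at 25 ng/bee ran from far below the lowest control to near the highest and overlapped with both other groups. The group means were 0.09 ± 0.08, -0.03 ± 0.14 and -0.06 ± 0.04 (SD, n = 5). When the same median of the genes of shorter span was subtracted in each library, control and 250 ng/bee overlapped. The control then ran from -0.037 to 0.187 and 250 ng/bee from -0.135 to 0.0048.

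**Figure D4:**
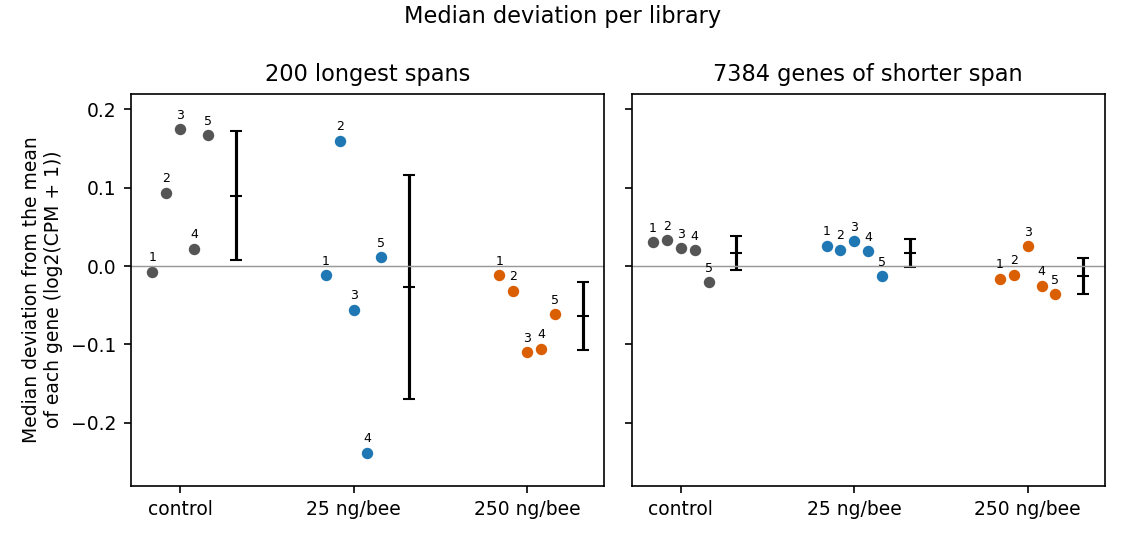
Median deviation of log2(CPM + 1) from each gene's mean, for the 200 longest spans and the 7384 genes of shorter span, with 1 numbered point per library (the number is the replicate) and the mean and SD of each group (n = 5). For the 200 genes the control lies between -0.0074 and 0.17, the libraries at 250 ng/bee lie just below it, between -0.11 and -0.011, and those at 25 ng/bee overlap with both.

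The neuron markers had lower values as well, compared by group and not library by library. All 5 had log2 fold changes below 0 at both doses, with a median of -0.06 at 25 ng/bee and -0.28 at 250 ng/bee, and their summed CPM at 250 ng/bee (819.5 to 980.2) did not overlap with the control (1017 to 1296). Of 6 muscle markers tested, all troponin genes of the contractile apparatus, none was lower at 250 ng/bee and the median was 0.85, with summed levels of 94.1 to 844 CPM in the control and 192 to 1070.0 CPM at 250 ng/bee. The single glia marker found, the transporter gene Eaat-2, was at -0.09 at 250 ng/bee, 5 fat body markers had a median of 0.07 and 4 visual pigment genes of the retina a median of -0.08. The 9 gland markers, whose summed levels are given above, had a median of -0.15, with 6 lower. The part of these cells in the result was not tested.

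Genes were then ranked by span to see whether the lower values belonged to the longest ones. At 250 ng/bee the median log2 fold change was -0.17 in ranks 1 to 200, -0.12 in ranks 201 to 400, -0.15 in ranks 401 to 800, -0.11 in ranks 801 to 1600 and -0.11 in ranks 1601 to 3200. It was 0.01 in the 4384 genes beyond, of at most 5395 nt. Lower values therefore extended far past the 200 longest genes, and the break lay among genes of short span. At 25 ng/bee the medians of the same classes were -0.10, -0.06, -0.08, -0.06, -0.04 and 0.02.

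**Figure D5:**
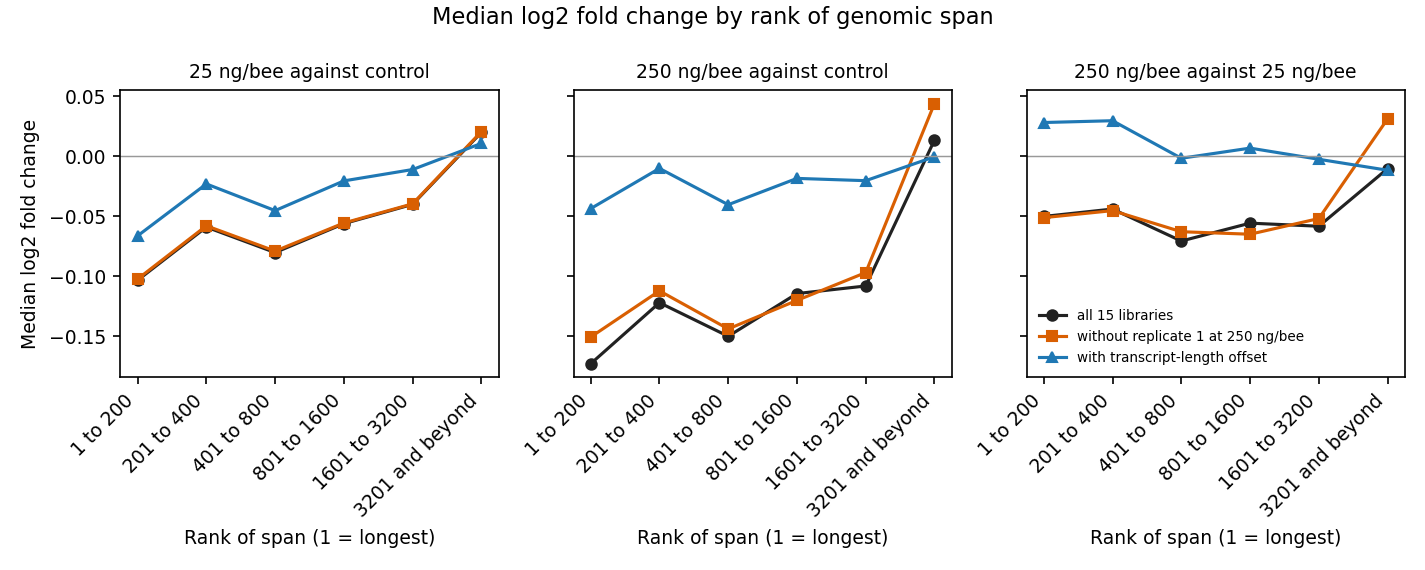
Median log2 fold change of genes in 6 classes of span rank, from the longest on the left, for the 3 comparisons, with all libraries (black), without replicate 1 at 250 ng/bee (orange) and with an offset for transcript length (blue). With all libraries the class of the 200 longest spans is at -0.10, -0.17 and -0.05, and with the offset at -0.07, -0.044 and 0.03.

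Span and messenger RNA length go together, so the fit was repeated with an offset for each library that removes its trend on the longest transcript of the gene. At 250 ng/bee the median of the 200 genes then moved from -0.17 to -0.044, the share with lower values from 78% to 59.5% (51.8% of all genes). The unadjusted counts went from 28 lower and 0 higher to 6 lower (3.76% of all genes) and 6 higher (3.1%). At 25 ng/bee the median moved from -0.10 to -0.07 and the share with lower values from 77.0% to 69.0% (51.1% of all genes). With the offset the median of all genes tested was -0.01 at 250 ng/bee. The offset would also remove a change that is itself tied to transcript length, and the 2 cannot be told apart.

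Genes of like transcript length were also compared without the offset. Among genes with a longest transcript of 4000 to 8000 nt, the median log2 fold change at 250 ng/bee was -0.21 in 90 of the 200 genes, -0.15 in 587 genes of ranks 201 to 1600 and -0.15 in 646 genes of lower rank. Over 8000 nt it was -0.16 in 55 of the 200, -0.11 in 194 and -0.10 in 30 genes. Between 2000 and 4000 nt it was -0.13 in 45 of the 200, -0.12 in 484 and -0.08 in 2234 genes. Up to 2000 nt it was -0.0038 in only 10 of the 200, -0.05 in 135 and 0.06 in 3074 genes. The value of those 10 genes was -0.18 without replicate 1 at 250 ng/bee.

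Within the 200 genes the median was below 0 in each kind of gene compared here, though the share with lower values differed. At 250 ng/bee the median log2 fold change was -0.26 in the 31 genes with 1 transcript and -0.16 in the 169 with more. It was -0.16 in the 123 genes that hold another gene and -0.18 in the 77 that do not. In the upper and lower 100 genes by FPKM it was -0.13 and -0.20. Of the 17 genes with a level-weighted span under 0.5 of the gene's span 9 had lower values, with a median of -0.16, and of the other 183 genes 147 had, with a median of -0.17. Across the 200 genes the rank correlation of the log2 fold change at 250 ng/bee was -0.16 with span and -0.03 with the longest transcript, as a description over genes that share their libraries.

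No gene of long span passed the test between the 2 doses. The log2 fold change of 250 ng/bee against 25 ng/bee was below 0 in 133 of the 200 genes (66.5%), against 55.9% of all genes tested, with medians of -0.05 and -0.02. None of the 200 genes had an adjusted p under 0.05 in edgeR's test (0.0% of all genes), and at an unadjusted p under 0.05 there were 3 lower (2.57% of all genes) and 0 higher (2.42%). The 3 became 1 without replicate 2 and 10 without replicate 4 at 25 ng/bee, and 5 without replicate 5 at 250 ng/bee. The median of the 200 was 0.03 with the offset for transcript length and 0.01 without replicate 2 at 25 ng/bee. LOC100578423 was the only one of the 200 with every library at 250 ng/bee below every library at 25 ng/bee (0.397% of all genes), and in none did every library lie above (0.314%). LOC100578423 had a log2 fold change of -0.78 ± 0.23 and an adjusted p of 0.934 in edgeR's test.

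Single transcripts were compared as log2(FPKM + 0.1) with limma. Of 16556 transcripts tested, 357 belonged to 193 of the 200 genes, and none of the 357 had an adjusted p under 0.05 at either dose (0.0% of all transcripts). Differences were below 0 in 211 of them at 25 ng/bee and in 224 at 250 ng/bee, against 52.5% and 51.0% of all transcripts. At an unadjusted p under 0.05 there were 19 (3.74% of all transcripts) and 15 (4.42%). On this scale the differences of transcripts of low level are understated.

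The balance between full-span and shorter transcripts was tested in 79 of the 200 genes, as the log2 ratio of their summed FPKM, among 1879 genes. None of the 79 passed limma's test at either dose (0.0% of all genes), and 4 and 3 had an unadjusted p under 0.05, against 5.22% and 4.9% of all genes. The ratio was lower than in the control in 40 of the 79 at 25 ng/bee (49.7% of all genes) and in 38 at 250 ng/bee (49.4%), with median differences of -0.02 and 0.03. Differences in this balance thus lay about evenly on both sides of 0.

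LOC411113, at chr5:10204340-10344216, had the smallest p of the 79 genes at both doses in limma's test of the ratio. Its full-span share was 86.4%, 80.4%, 87.0%, 81.6% and 81.1% in the control, 94.4%, 90.2%, 90.5%, 96.3% and 95.7% at 25 ng/bee and 84.0%, 96.7%, 96.4%, 95.8% and 95.6% at 250 ng/bee. All libraries at 25 ng/bee lay above the control range, as did all at 250 ng/bee but replicate 1. How many of the 1879 genes separated likewise was not counted. The log2 ratio differed from the control by 1.57 ± 0.47 and 1.82 ± 0.47, with limma adjusted p-values of 0.674 and 0.561. The gene's total level was 599.7 ± 62.1 CPM in the control, 599.9 ± 61.8 at 25 ng/bee and 527 ± 84.9 at 250 ng/bee (SD, n = 5).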

How the data were processed

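Per the submitters' processing notes, DESeq2 1.22.2, StringTie 2.0.2, HISAT2 2.1.0, SAMtools 1.7 and Trimmomatic 0.39 were used, without the role of each, and no source used here names the genome build. Estimated counts were deposited in 1 gene table of 12112 genes, each count within 1 count of coverage times length over a read length of 75, which were used as whole numbers. The authors' deposited transcript tables give the FPKM and the coverage signal of 28276 transcripts. All 200 genes have the same start and end in assembly Amel_HAv3.1 of the reference gene table, so coordinates are printed as deposited. The products of the genes are not named in the tables used, and the part of the naming rule that rests on product words could not be applied.

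Groups and replicate numbers came from the sample titles. Counts were tested with edgeR 4.0.16 (filterByExpr, TMM, quasi-likelihood) in R 4.3.3 over all 15 libraries and 9560 genes, and the common biological coefficient of variation was 0.219. Alternatives were DESeq2 1.42.0, DESeq2's size factors, no filter, limma-voom with sample weights (limma 3.58.1), a replicate block, an offset from a loess curve on transcript length, each replicate left out, and lists of other length. Transcripts were tested with limma on log2(FPKM + 0.1) where at least 5 libraries had an FPKM of at least 0.5, and full-span transcripts (at least 80% of the span) against the others as a log2 ratio in genes with a mean summed FPKM of at least 1. CPM values are edgeR's with TMM. Each fitting step was tested on simulated data.

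Chi-square per degree of freedom between library pairs was at least 18.1 within groups and 17.5 across groups, so all 15 libraries were used as separate replicates. The 200 genes, the marker lists and the alternatives were chosen with earlier results of these data known. Genes named by rule are the 10 longest, the 10 with the smallest p in each direction of each comparison, the 10 highest by CPM and by FPKM, and the 3 on each side of the limit, and not all of them are described. Some further genes are named for a value seen in these data.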

Additional observations from a re-analysis of the deposited data

Results flagged for a closer look

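Among 198 groups of 5 libraries of the named genes, 13 had 1 library whose gap to the nearest other exceeded 0.71 of the group's range (6.57%), where chance gives about 1 in 20. Among the control libraries, LOC724287 was low in replicate 3, with 1.88 CPM against 3.45 to 3.99 CPM in the others. LOC410655 with 5.24 CPM and LOC411054 with 20.7 CPM were high in control replicate 2, LOC413021 with 92.9 CPM in replicate 4, and LOC100578236 with 15.7 CPM and LOC551647 with 68.0 CPM in replicate 5. At 25 ng/bee, LOC100576700 was high in replicate 5 with 223 CPM, LOC725803 in replicate 2 with 40.7 CPM and LOC102655706 in replicate 3 with 26.6 CPM. At 250 ng/bee, LOC726153 was high in replicate 3 with 7.06 CPM and LOC411212 in replicate 2 with 36.5 CPM.

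Replicate 1 at 250 ng/bee, the library of greatest depth, held 2 of the 13. LOC410299 was high there with 25.2 CPM, and LOC410856 was low with 48.8 CPM against 109 to 121 CPM in the other 4 libraries.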

How the results depend on the processing

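Of 209 alternative values of lists and counts, 206 kept their direction or stayed within the limits set for them, and 3 moved. The tally does not show how far values shifted. Ranges of the medians follow here, and shifts of the unadjusted counts are given above. At 250 ng/bee the number of the 200 genes called was 0, with a range of 0 to 2 when single replicates were left out (2 without replicate 1 at 250 ng/bee). It was 7 with limma-voom with sample weights (3.5%, against 4.08% of all genes tested). The median log2 fold change at 250 ng/bee moved from -0.17 to -0.044 with the length offset, and the cause was not tested. When single replicates were left out it ranged from -0.20 to -0.13. At 25 ng/bee the median ranged from -0.17 without replicate 2 at 25 ng/bee to -0.05 without replicate 4. For 250 against 25 ng/bee it ranged from -0.07 to 0.0088, the latter without replicate 2 at 25 ng/bee, and was 0.03 with the length offset. Under the replicate block the medians were -0.12, -0.18 and -0.04 and 0 of the 200 genes were called in any comparison. Deviations of same-numbered libraries correlated at -0.054 to 0.237, with a median of 0.048 against -0.018 for other numbers, and 4 of 15 pairs were over 0.1, so the limit that every pair exceed 0.1 was not met; 7 of 15 libraries correlated best with their own number, a hint from the data and not from the design. Of 1260 alternative values of 60 single-gene results, 6 newly passed the threshold, all at 250 ng/bee and lower, in LOC411229, LOC412838, LOC410967 and LOC413242, and none changed direction past it. Levels near 1 CPM rest on few counts, and depth limits those genes most.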

Other observations

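In LOC410317 the library at 250 ng/bee with the lowest level of this gene, replicate 4 with 6.55 CPM, also had none of the gene's level in full-span transcripts, which held 82.2% to 92.2% in the other 4 libraries of that dose and 60.7% to 91.3% in the control. LOC113218567, the gene with the longest mean intron, had a full-span share of 60.4% in the control, 32.05% at 25 ng/bee and 13.3% at 250 ng/bee, as means of 5 libraries, with a limma adjusted p of 0.908 at 250 ng/bee.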
